A study of Mus musculus with 29 samples.

Results

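The response of brown adipose tissue (BAT) to calorie restriction (CR) was set against that of skeletal muscle (SkM) in sedentary mice, gene by gene. For every gene, the change from control to CR was taken in each tissue on the log2 scale, and the SkM change was subtracted from the BAT change. A positive difference therefore means that the gene moved further up, or less far down, in BAT than in SkM. All genes of the deposited table were eligible. Of its 24770 rows, 14369 held enough reads to be tested, and 10779 of those averaged at least 1 CPM (counts scaled by the effective library size) in each tissue.

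The study profiled both tissues of C57BL/6J mice by RNA sequencing, and 14 of its 29 libraries entered this comparison. The mice were male and wild type (WT). The control group ate a chow diet without limit and the CR group was brought stepwise to a smaller ration, and no mouse of these groups was trained. BAT gave 3 control and 4 CR libraries. SkM, which was gastrocnemius muscle, gave 4 control and 3 CR libraries. All mice were fasted before the tissues were taken. Each library is a whole-tissue RNA sample, so that fewer cells of a type and less RNA per cell cannot be told apart. The labels do not say which BAT and SkM libraries came from the same mouse, and p-values rest on the spread between these libraries. The 7 BAT libraries held 21154276 to 24665593 counts each and the 7 SkM libraries 23050918 to 23425284, so that a level of 3 counts equals 0.122 to 0.142 CPM for BAT libraries and 0.128 to 0.130 CPM for SkM libraries.

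BAT burns fatty acids and glucose to make heat through uncoupled respiration in its brown adipocytes, whereas skeletal muscle burns them to contract and is the main protein store drawn on in energy shortage. During restriction, falling insulin and rising glucocorticoids reach both tissues through the blood. The transcription factor FOXO1, which insulin signalling keeps out of the nucleus, and the glucocorticoid receptor then act on genes of fuel use and protein breakdown, while the molecular clock of each tissue follows the time of feeding.

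The tissues were told apart by their markers before any response was read. Summed CPM of 12 skeletal muscle fibre markers ran from 144355 to 233030 in SkM. In BAT it was 736, 60.2 and 5.05 in the control libraries and 22.7, 55.6, 1623 and 792 in the CR libraries, so that control 1, CR 3 and CR 4 carried more muscle RNA than the other BAT libraries. Ucp1, the uncoupling protein of brown adipocytes, stood at 1717 to 4326 CPM in BAT and at 0 to 0.149 CPM in SkM. Summed CPM of 10 hepatocyte markers was 0.596 to 7.48 in control SkM but 49.6, 274 and 269 in CR SkM, and 74.3 in BAT CR 3 against 1.83 to 6.31 in the other BAT libraries. The adipocyte hormone gene Adipoq was at 0 to 1.89 CPM in control SkM and at 10.98, 0.940 and 14.6 CPM in CR SkM. The part of these other cells' RNA in the responses was not tested, and their values are repeated beside the genes they touch.

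**Figure D1:**
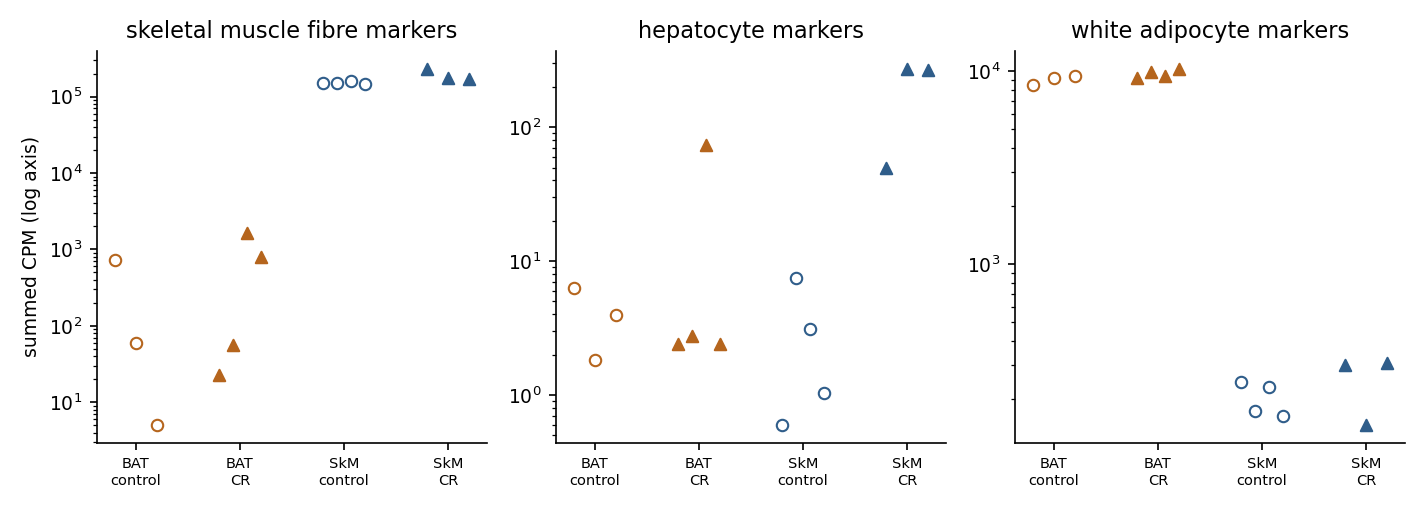
Summed CPM of skeletal muscle fibre, hepatocyte and white adipocyte markers in each of the 14 libraries, on a log axis, with control libraries as open circles and CR libraries as filled triangles. Hepatocyte markers stood at 49.6, 274 and 269 CPM in the 3 CR SkM libraries and at 0.596 to 7.48 CPM in the 4 control SkM libraries.

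The response differed between the tissues for 904 genes, called at an adjusted p under 0.05 by edgeR's quasi-likelihood test with at least a 1.5-fold difference. BAT lay above SkM for 437 of them (3.04% of the tested genes) and below SkM for 467 (3.25%). In the same fit, CR raised 532 genes in BAT (3.7%) and lowered 848 (5.9%), and in SkM it raised 758 (5.28%) and lowered 773 (5.38%). Only a part of the genes called in a single tissue passed the test of the difference. Of the 1013 genes called in BAT and not in SkM, 267 had a called difference, and of the 1164 called in SkM and not in BAT, 343 had one. For the other 746 and 821 genes a difference between the tissues was not shown.

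A gene could move alike, in a single tissue, or in opposite directions. In all, 328 genes were called in both tissues with the same sign, 126 upwards and 202 downwards, which is 23.8% of the BAT calls and 21.4% of the SkM calls. Another 39 genes were called in both with opposite signs. A further 240 genes had a called difference although neither tissue passed alone. Over all 904 called differences, the estimates of the tissues had opposite signs for 687. Selecting genes by the size of the difference favours opposite signs, and the share over all tested genes is not given here. Across all 14369 genes the responses of the tissues correlated weakly, with a Spearman coefficient of 0.260 and a Pearson coefficient of 0.355, a description over genes that share their libraries. The median response was 0.02 on the log2 scale in either tissue.

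**Figure D2:**
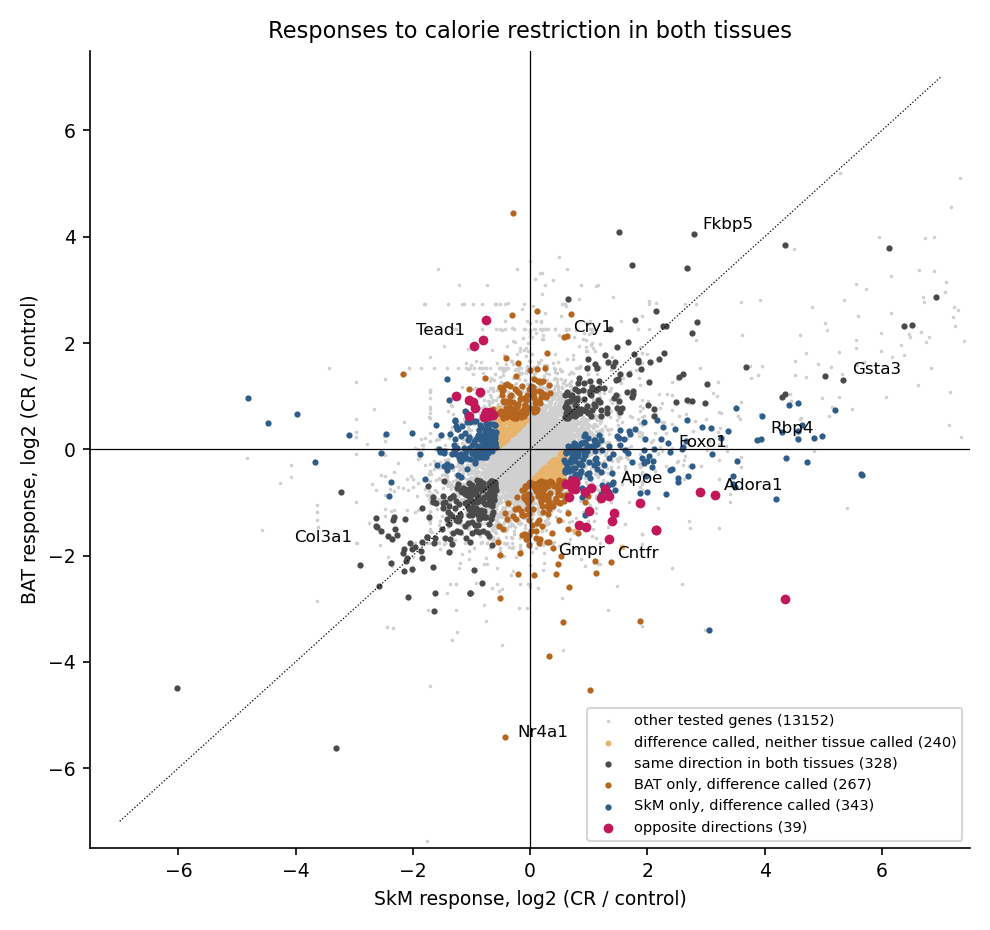
BAT response against SkM response, each as log2 of CR over control, for the 14369 tested genes (9 lie beyond the axes at 7.5), with the dotted line marking equal responses. The 328 genes called in both with the same sign follow the dotted line loosely, while the 39 opposite genes lie in the upper left and lower right of the plot.

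Of the 39 genes that moved in opposite directions, 24 fell in BAT and rose in SkM and 15 rose in BAT and fell in SkM. Without BAT control 1 the count was 25 and without BAT control 2 it was 22. The clearest was Cntfr (GRCm38, chr4:41657498-41697091), which encodes the receptor subunit that binds ciliary neurotrophic factor. It stood at 29.9, 21.01 and 20.8 CPM in control BAT and at 7.58, 6.93, 8.73 and 6.35 CPM in CR BAT. In SkM it stood at 14.2, 11.9, 12.0 and 14.4 CPM in controls and at 33.8, 39.3 and 26.6 CPM in CR. The groups did not overlap in either tissue, and Cntfr passed from higher in BAT to higher in SkM. Its log2 response was -1.69 ± 0.16 (SE) in BAT and 1.34 ± 0.15 in SkM, and the edgeR adjusted p of the difference was 1.79e-06.

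Adora1 (chr1:134199215-134235457), the adenosine A1 receptor gene, had the largest difference among the opposite genes named here. BAT controls held 126, 120 and 117 CPM and the CR group 62.0, 51.5, 90.2 and 63.1 CPM. SkM controls held 1.34, 0.797, 1.08 and 0.589 CPM and the CR group 10.01, 7.91 and 7.39 CPM. The gene thus stayed far more abundant in BAT while its SkM level rose from a low start. Its control SkM values lay above the level of 3 counts, 0.128 to 0.130 CPM. Its log2 response was -0.86 ± 0.17 in BAT and 3.15 ± 0.24 in SkM. Glb1l2, a gene related to beta-galactosidase, moved in the same way, with log2 responses of -0.80 ± 0.18 and 2.90 ± 0.21.

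Apoe (chr7:19696244-19701310), which encodes the lipid carrier apolipoprotein E, fell in BAT from 584, 519 and 601 CPM to 327, 290, 322 and 295 CPM. In SkM it rose from 49.0, 43.0, 42.5 and 39.3 CPM to 88.6, 118 and 124 CPM. No control value of either tissue reached the range of its CR group. Apoe is also abundant in liver, and albumin (Alb) was at 30.9, 166 and 156 CPM in the same CR SkM libraries. The part of liver RNA in the Apoe values was not tested. In CR BAT, Alb was at 0.0789, 0.0861, 48.8 and 0.119 CPM, and Apoe in CR 3 lay within the range of the other CR libraries.

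Hr, Cdkn1c, Sox13 and Mxra8 moved in the same direction. Hr, a nuclear corepressor for thyroid hormone and vitamin D receptors, fell from 9.74, 10.96 and 10.4 CPM to 3.04, 2.93, 5.87 and 3.53 CPM in BAT and rose from 46.5, 50.3, 42.8 and 64.1 CPM to 79.8, 83.7 and 108 CPM in SkM. Cdkn1c, an inhibitor of cyclin-dependent kinases, had log2 responses of -0.72 ± 0.18 in BAT and 1.04 ± 0.18 in SkM. Sox13, a transcription factor of the SOX family, and Mxra8, a cell surface protein gene, moved by -0.60 and -0.80 in BAT and by 0.76 and 0.93 in SkM. For all 4 of these genes the control and CR libraries did not overlap in either tissue. They were named for small p-values of the difference, and the share of all tested genes without overlap is not given here.

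Insulin, glucocorticoid and lipid droplet genes were also in this group, each named as a member of a gene list. Sgk1, a kinase gene induced by glucocorticoids, fell in BAT from 42.9, 43.9 and 57.6 CPM to 14.0, 18.4, 24.0 and 13.3 CPM, and rose in SkM from 157, 94.1, 79.6 and 172 CPM to 232, 258 and 243 CPM. Tbc1d1, a regulator of glucose transporter traffic, had log2 responses of -0.73 ± 0.17 and 0.72 ± 0.14. Plin4, a lipid droplet coat protein gene, stood at 455, 501 and 428 CPM in control BAT and at 219, 120, 413 and 228 CPM in CR BAT, and it rose in SkM from 250, 235, 275 and 312 CPM to 615, 632 and 603 CPM. BAT CR 3, the CR library closest to the Plin4 controls, was also the one with the most muscle marker RNA.

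The opposite pattern, up in BAT and down in SkM, had its largest difference among the genes named here in Tead1 (chr7:112679356-112906784), a transcription factor gene of the Hippo pathway that also acts on muscle promoters. BAT rose from 13.4, 14.9 and 14.1 CPM to 63.9, 57.3, 59.9 and 37.0 CPM, while SkM fell from 145, 205, 166 and 241 CPM to 64.8, 119 and 110 CPM. The gap between the tissues was thus narrower under CR, and the log2 responses were 1.95 ± 0.24 and -0.95 ± 0.23. The lowest CR value in BAT came from CR 4, which carried muscle marker RNA, and CR 1 and CR 2, which carried little, held the values 63.9 and 57.3. Ung, the uracil-DNA glycosylase gene of base excision repair, rose in BAT from 3.79, 3.92 and 4.19 CPM to 5.53, 6.24, 6.77 and 5.92 CPM and fell in SkM from 12.1, 11.2, 12.6 and 11.8 CPM to 4.86, 6.24 and 6.27 CPM. Its level in the CR groups of the tissues was therefore much the same.

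Dnaja4, a co-chaperone of the HSP40 family, went from 11.6, 9.82 and 13.1 CPM to 19.7, 20.2, 17.3 and 17.3 CPM in BAT and from 91.1, 93.4, 83.3 and 88.0 CPM to 49.9, 48.9 and 60.5 CPM in SkM. Arhgap24, a GTPase-activating protein gene for Rac, had log2 responses of 0.93 ± 0.15 and -1.03 ± 0.16. Retsat, the retinol saturase gene of adipocytes, had 0.62 ± 0.12 and -0.69 ± 0.12. In Fhl3, a LIM domain gene of muscle, Chst15, a chondroitin sulphate sulfotransferase gene, and Acvr2b, the receptor for activin and myostatin, the BAT groups overlapped, and their BAT responses of 0.90, 0.61 and 0.64 had adjusted p-values of 0.0109, 0.0147 and 0.0429 in edgeR. Fhl3 was at 7.31 CPM in BAT control 1 against 3.37 and 4.04 CPM in the other controls, and control 1 was a library with muscle marker RNA.

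**Figure D3:**
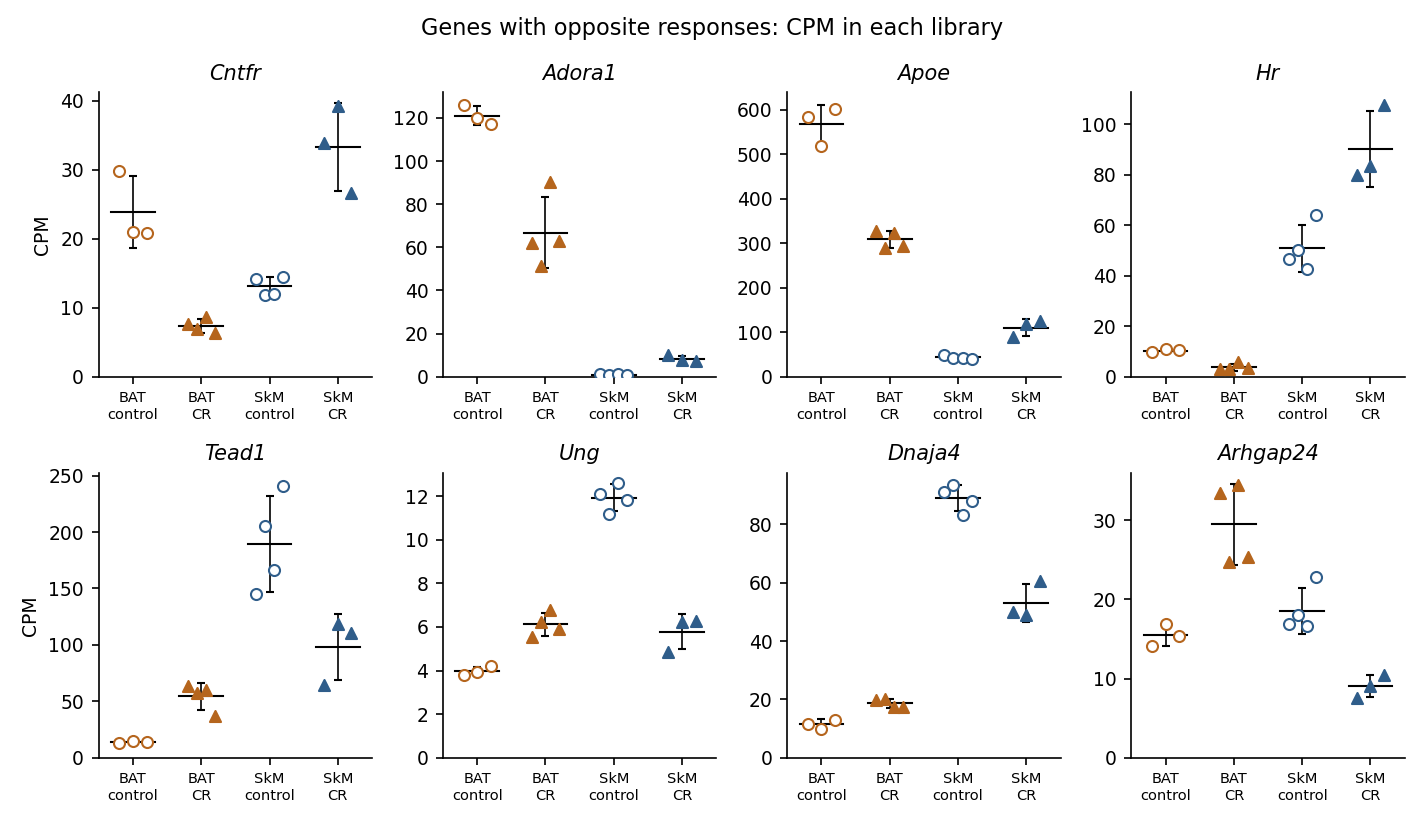
CPM of 8 genes with opposite responses in each library, with control libraries as open circles, CR libraries as filled triangles, a horizontal bar at the group mean and a whisker of 1 SD. The upper row fell in BAT and rose in SkM, and the lower row rose in BAT and fell in SkM, as for Tead1 with BAT at 13.4 to 14.9 CPM in controls and 37.0 to 63.9 CPM under CR.

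The 267 genes that responded in BAT with a called difference comprised 110 that rose and 157 that fell. The count was 164 without BAT control 2 and 410 without BAT CR 3. For 120 of them the SkM response was bounded within 1.5-fold by its 95% interval. For 188 the SkM estimate had the other sign, which selection by a called difference favours. Only 25 averaged under 1 CPM in SkM. The clearest fall was that of Gmpr (chr13:45507428-45546386), the guanosine monophosphate reductase gene of purine salvage. BAT fell from 86.9, 91.4 and 81.8 CPM to 25.8, 25.4, 30.2 and 26.4 CPM, while SkM stood at 157, 145, 127 and 125 CPM in controls and at 161, 153 and 155 CPM under CR. The BAT libraries of a group lay close together, and the SkM groups overlapped. Its BAT response was -1.69 ± 0.10, and the 95% interval of the SkM response stayed within 1.5-fold.

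Mcam, a cell adhesion molecule of vessels, fell in BAT from 45.9, 46.6 and 40.5 CPM to 13.5, 12.6, 18.4 and 16.4 CPM with an SkM response of 0.02 ± 0.14. Ttc28, a gene with tetratricopeptide repeats, and Abi3, a gene of the actin regulatory WAVE complex, fell in BAT by 1.55 and by 0.89 on the log2 scale with SkM responses of 0.10 and 0.19. Summed markers of smooth muscle and pericytes, cells that also carry Mcam, were 274 to 315 CPM in control BAT and 199 to 221 CPM in CR BAT, but 343 to 467 CPM and 353 to 458 CPM in SkM, and their part in the fall of Mcam was not tested. Prdm16, a transcriptional regulator of brown fat identity, fell from 20.6, 28.3 and 25.9 CPM to 9.67, 6.42, 13.4 and 10.4 CPM in BAT and had an SkM response of -0.02 ± 0.23.

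Genes called upwards in BAT but not in SkM included Desi1, Tcn2, Bcat2 and Rilp. Desi1, a deSUMOylating peptidase gene, went from 6.99, 7.04 and 6.92 CPM to 18.1, 25.3, 19.7 and 23.3 CPM in BAT, while SkM stood at 13.01, 15.5, 15.1 and 14.4 CPM in controls and at 14.0, 11.3 and 12.5 CPM under CR. Tcn2, the vitamin B12 carrier transcobalamin, rose in BAT from 52.1, 65.3 and 67.3 CPM to 143, 147, 154 and 160 CPM with an SkM response of 0.22 ± 0.11. Bcat2, the mitochondrial aminotransferase that opens branched-chain amino acid breakdown, rose by 0.71 ± 0.10, and Rilp, a gene of lysosome transport, by 0.68 ± 0.09. Their SkM estimates were -0.34 and -0.25, below the fold threshold.

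The 343 genes that responded in SkM with a called difference comprised 172 that rose and 171 that fell. The BAT response was bounded within 1.5-fold for 169 of them, and 220 had a BAT estimate of the other sign. Selection by a called difference favours such signs. Foxo1 (chr3:52268337-52350109), the insulin-regulated transcription factor gene, was the clearest example by its role. SkM rose from 14.0, 14.6, 15.8 and 17.8 CPM to 89.4, 83.5 and 71.1 CPM. BAT stood at 68.8, 45.1 and 80.8 CPM in controls and at 65.5, 46.7, 70.4 and 68.4 CPM under CR. Foxo1 was therefore lower in control SkM than in BAT, and under CR it reached or passed the BAT level. Its SkM response was 2.39 ± 0.18, its BAT response -0.05 ± 0.17, and the adjusted p of the difference 8.67e-05 in edgeR.

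Usp54, a gene of the ubiquitin peptidase family, rose in SkM from 8.20, 5.58, 6.55 and 7.43 CPM to 28.4, 25.9 and 23.6 CPM, with BAT at 3.65 to 4.47 CPM in all libraries. Nrip1, a nuclear receptor corepressor of oxidative genes, went from 14.1, 11.4, 11.4 and 12.0 CPM to 34.2, 46.5 and 39.3 CPM in SkM and had a BAT response of 0.30 ± 0.12. Tmpo, a nuclear lamina protein gene, rose by 1.23 ± 0.12 in SkM. Among the genes that fell, Pde4a, a cyclic AMP phosphodiesterase, went from 63.5, 62.6, 63.7 and 80.7 CPM to 18.5, 27.1 and 23.8 CPM in SkM, with a BAT response of -0.06 ± 0.15. Slc25a22, the mitochondrial glutamate carrier, went from 49.7, 39.6, 50.6 and 49.0 CPM to 22.9, 23.2 and 22.4 CPM, and its BAT response was 0.03 ± 0.11. Pla2g16, a phospholipase gene of adipocytes, and P2rx6, a purinergic receptor gene, fell in SkM by 0.78 and by 0.70 on the log2 scale.

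**Figure D4:**
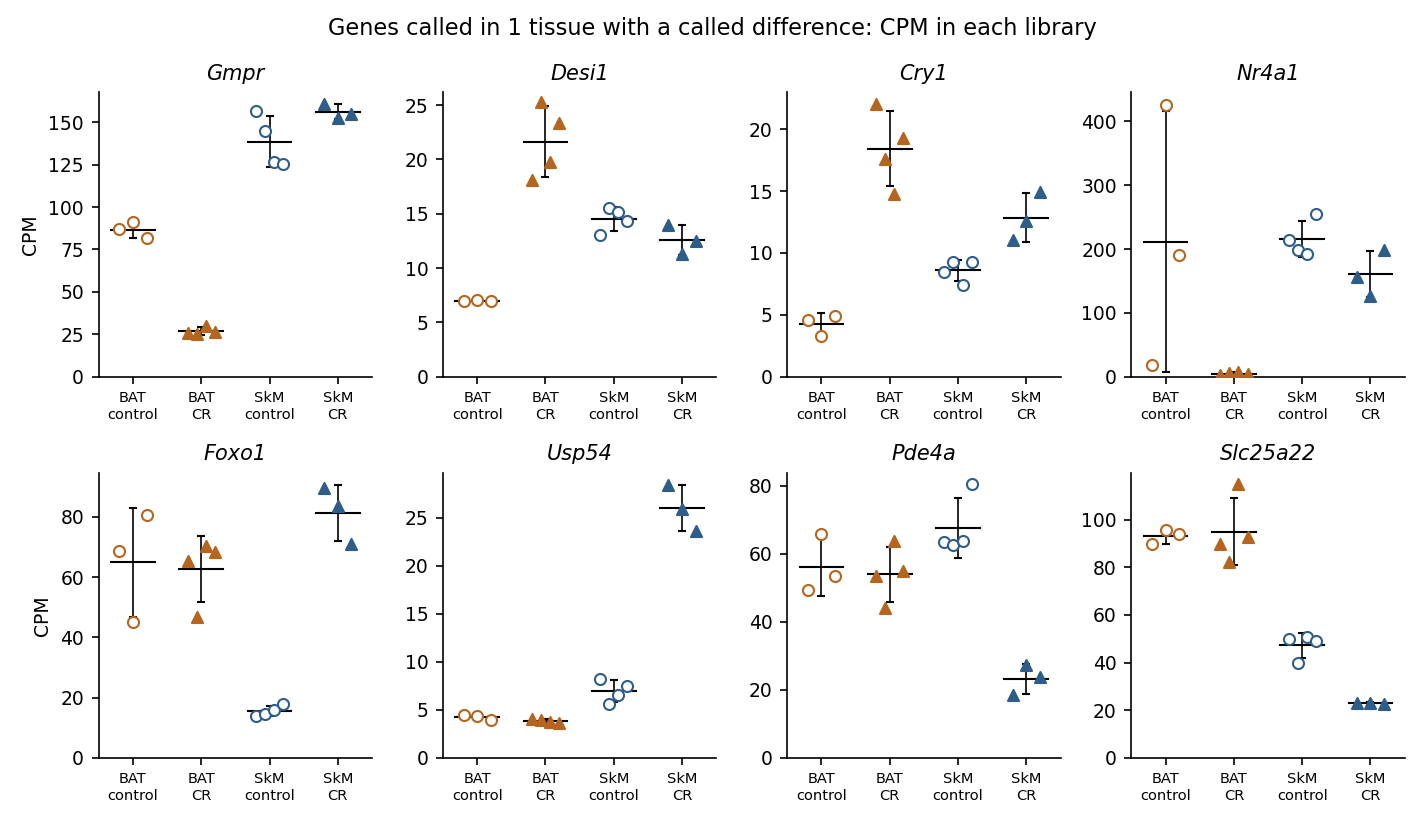
CPM of 8 genes called in a single tissue with a called difference, in each library, with control libraries as open circles, CR libraries as filled triangles, a horizontal bar at the group mean and a whisker of 1 SD. Gmpr, Desi1, Cry1 and Nr4a1 are called in BAT, and Foxo1, Usp54, Pde4a and Slc25a22 in SkM, where Foxo1 runs from 14.0 to 17.8 CPM in controls and from 71.1 to 89.4 CPM under CR.

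Several SkM rises coincided with markers of other cells. Rbp4, the retinol carrier secreted by liver and fat, rose from 0.944, 0.598, 0.685 and 0.498 CPM to 5.20, 12.7 and 13.5 CPM in SkM, and Cyp2e1, a cytochrome P450 gene of liver and fat, from 2.78, 0.548, 2.89 and 3.26 CPM to 53.9, 35.7 and 63.2 CPM. Alb in these CR libraries was 30.9, 166 and 156 CPM and Adipoq 10.98, 0.940 and 14.6 CPM. Rbp4 was lowest in the CR library that was lowest in Alb, and Cyp2e1 was lowest in the CR library that was lowest in Adipoq. Plin1, the perilipin of white and brown fat cells, was at 0.298, 0, 0.391 and 0.0906 CPM in control SkM and at 2.43, 0.385 and 3.74 CPM in CR SkM, in the same order as Adipoq. Without SkM CR 1 and CR 3, the CR libraries richest in adipocyte marker RNA, the Plin1 difference went from -4.11 to -1.61 and was not called, with an adjusted p of 0.339 in edgeR. In that fit, which keeps 1 CR library of SkM, the differences of Rbp4 and Cyp2e1 were -4.01 and -3.07 and were called. The library it keeps held 166 CPM of Alb, and the part of liver RNA was not tested.

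The 328 genes called with the same sign included targets of the glucocorticoid receptor. Fkbp5 (chr17:28398753-28486149), a co-chaperone gene induced by the glucocorticoid receptor, rose in BAT from 6.07, 1.58 and 3.11 CPM to 64.4, 59.4, 65.3 and 46.2 CPM and in SkM from 16.7, 14.1, 15.8 and 15.3 CPM to 132, 86.2 and 104 CPM. The log2 responses of 4.05 ± 0.33 and 2.79 ± 0.28 differed by 1.25 ± 0.41, with an adjusted p of 0.0894 in edgeR. The Fkbp5 difference was called, with BAT further up, without BAT control 1 (1.88, adjusted p = 0.00326 in edgeR), without the 3 BAT libraries richest in muscle marker RNA (1.95), with DESeq2 (1.28) and with the replicate block (1.47). Mt2, a metallothionein gene, rose by 2.01 ± 0.38 in BAT and by 1.67 ± 0.41 in SkM. Doc2b, a calcium sensor of vesicle release, was at 0.0374 to 0.257 CPM in control BAT and 1.37 to 3.70 CPM in CR BAT, and at 0.298 to 0.440 CPM in control SkM and 5.21 to 9.09 CPM in CR SkM. Cyp4a10, a fatty acid hydroxylase gene, was at 0 in 3 of the 4 control SkM libraries and at 0.826, 6.63 and 3.16 CPM in CR SkM, so no fold is given for it there. Its difference was not called, with an adjusted p of 0.164 in edgeR, but was called under 4 alternatives.

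A p-value that missed the threshold did not make responses equal. Among the 328 genes, the 95% interval of the difference lay within 1.5-fold for 38, and the difference was called for 15, of which 9 moved further in SkM and 6 further in BAT. Glul, the glutamine synthetase gene, rose further in SkM, from 195, 114, 119 and 158 CPM to 1027, 697 and 831 CPM, than in BAT, from 846, 939 and 1067 CPM to 2596, 2356, 2488 and 2336 CPM.

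Pnpla3, a lipid droplet acyltransferase and lipase gene, rose from 231, 238 and 225 CPM to 465, 388, 352 and 513 CPM in BAT and from 1.99, 2.69, 2.54 and 2.81 CPM to 14.2, 12.8 and 15.1 CPM in SkM. Gsta3, a glutathione transferase gene, was at 2.91, 2.60 and 2.55 CPM in control BAT and at 5.68 to 8.44 CPM under CR, and at 0 to 0.299 CPM in control SkM and at 3.16, 4.74 and 5.86 CPM under CR. These CR SkM libraries held 30.9, 166 and 156 CPM of Alb, and the part of liver RNA in the Gsta3 values was not tested. Pik3r1, the regulatory subunit of phosphoinositide 3-kinase, rose by 0.82 ± 0.21 in BAT and by 2.01 ± 0.21 in SkM, and its difference lost the call under 9 of 27 alternatives.

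Part of the matrix genes fell in both tissues. Of 44 tested genes of fibrillar and other matrix, 23 fell in BAT and 19 in SkM, 15 of them in both, and 3 rose in each tissue, with median responses of -0.64 and -0.40 against 0.02 over all genes. Over all tested genes, 5.9% fell in BAT, 5.38% in SkM and 1.41% in both. Differences were called for 3 of the 44 with BAT above and for 4 with BAT below, against 3.04% and 3.25% of all tested genes. By class, 3 of the 44 responded in BAT only, 1 in SkM only and 1 in opposite directions. Col3a1, the collagen III chain gene, fell from 103, 108 and 75.8 CPM to 42.1, 28.2, 40.4 and 29.7 CPM in BAT and further in SkM, from 75.0, 57.2, 68.1 and 70.7 CPM to 9.77, 11.2 and 12.0 CPM, with an adjusted p of 0.00558 for the difference in edgeR. Fbn1, the gene of the microfibril protein fibrillin, moved by -1.75 ± 0.26 and -1.84 ± 0.25, and Col5a3, a collagen V chain gene, by -1.16 ± 0.16 and -0.79 ± 0.16. Summed fibroblast progenitor markers were 80.9 to 116 CPM in control BAT against 70.5 to 83.9 CPM in CR BAT, and 126 to 180.0 CPM in control SkM against 100.02 to 122 CPM in CR SkM, and their part in these falls was not tested.

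Of 19 tested basement membrane genes, 10 fell in BAT and 5 in SkM, the latter all among the former. The shares of all tested genes that fell were 5.9% in BAT, 5.38% in SkM and 1.41% in both. For 1 of the 19 the difference was called, with BAT below, against 3.25% of all tested genes. Col15a1, a basement membrane collagen gene, had nearly equal responses of -2.09 ± 0.17 and -2.12 ± 0.18, and Col4a1, a collagen IV chain gene, -0.78 ± 0.11 and -1.17 ± 0.12. All 7 tested genes of MHC class II, which present peptides to helper T cells, fell in both tissues, and none had a called difference. Cd74, the invariant chain gene, went from 66.4, 68.8 and 77.5 CPM to 23.8, 24.9, 22.5 and 21.6 CPM in BAT and from 33.5, 26.0, 24.5 and 46.4 CPM to 4.47, 4.15 and 11.5 CPM in SkM. Without SkM CR 3, which held the highest Cd74 of the CR group, the differences of Cd74 and H2-Ab1 were 1.33 and 1.52 against 0.66 and 0.67 with it, and both were called, with adjusted p-values of 0.0124 and 0.0115 in edgeR. H2-Aa, H2-Ab1 and H2-Eb1, which encode the chains of class II molecules, had BAT responses of -1.49, -1.68 and -1.53 and SkM responses of -2.31, -2.35 and -2.55. Summed macrophage markers were 75.7 to 81.1 CPM in control BAT and 44.0 to 67.5 CPM in CR BAT, and 36.3 to 67.6 CPM and 27.0 to 44.5 CPM in SkM, and their part in these falls was not tested.

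Bcl6b, an endothelial transcriptional repressor gene, and Cx3cl1, the gene of the chemokine fractalkine, also fell in both tissues. Their BAT responses were -1.83 ± 0.29 and -2.14 ± 0.29 and their SkM responses -1.96 ± 0.31 and -2.38 ± 0.31. Summed endothelial markers were 375 to 429 CPM in control BAT against 302 to 358 CPM in CR BAT, and 331 to 410 CPM in control SkM against 232 to 291 CPM in CR SkM. The groups did not overlap in either tissue, and the part of these cells in the responses was not tested. Lgr6, a receptor for R-spondins, fell from 84.4, 55.9 and 51.3 CPM to 15.99, 8.36, 17.9 and 14.2 CPM in BAT and from 3.87, 1.79, 2.01 and 1.22 CPM to 0.0486, 0.342 and 0.457 CPM in SkM.

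**Figure D5:**
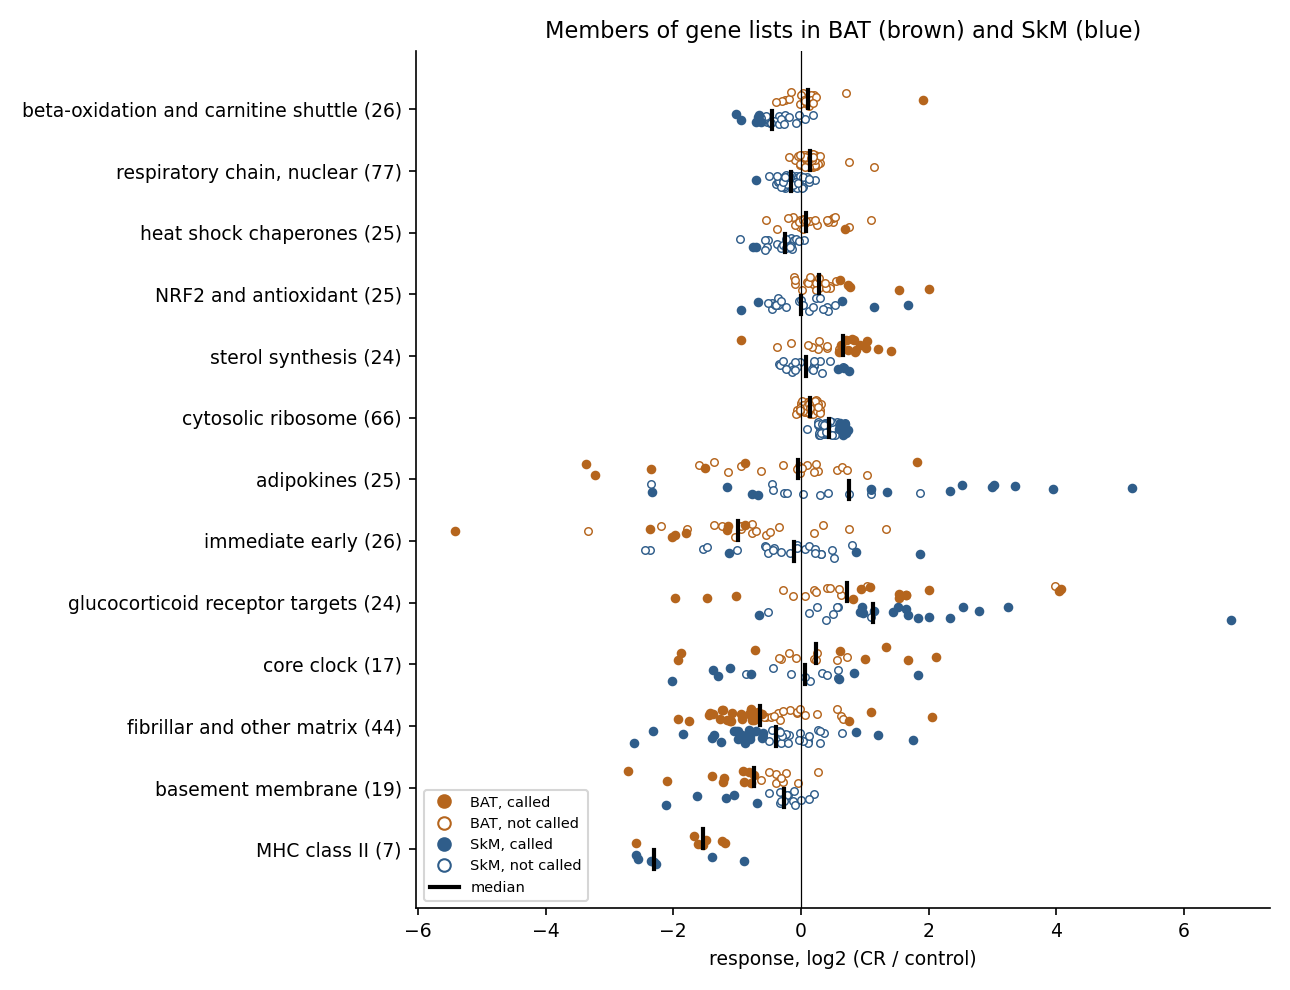
Responses of the tested members of 13 gene lists, as log2 of CR over control, with BAT in brown and SkM in blue, called genes as filled points, other genes as open points and a black bar at the median. Beta-oxidation genes sit near zero in BAT (median 0.11) and below it in SkM (median -0.45), while MHC class II genes lie below zero in both.

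Genes of fatty acid oxidation parted between the tissues. Of 26 tested genes of beta-oxidation and the carnitine shuttle, 7 fell in SkM and none rose, whereas in BAT none fell and 1 rose. The difference was above zero for 25 of the 26 and was called for 7, all of them above zero. Among all tested genes, 5.38% fell in SkM and 3.04% had a called difference above zero. The median response was 0.11 in BAT and -0.45 in SkM. Hadha, a subunit of the mitochondrial trifunctional protein, stood at 1363, 1229 and 1247 CPM in control BAT and at 1395, 1363, 1554 and 1374 CPM in CR BAT, and fell in SkM from 497, 456, 447 and 462 CPM to 296, 294 and 314 CPM. Its partner subunit Hadhb fell in SkM by 0.67 ± 0.11 on the log2 scale.

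Acads, the short-chain acyl-CoA dehydrogenase gene, went from 68.8, 67.5, 62.3 and 70.2 CPM to 38.5, 43.6 and 41.2 CPM in SkM, with a BAT response of 0.13 ± 0.09. Cpt2, the inner membrane carnitine palmitoyltransferase, and Etfdh, which passes electrons from these dehydrogenases to ubiquinone, had SkM responses of -0.66 ± 0.10 and -0.65 ± 0.10 and BAT responses of 0.06 ± 0.10 and 0.05 ± 0.10. In all 5 genes the control and CR libraries did not overlap in SkM, and the share of all tested genes without overlap there is not given here. Acadvl and Acaa2, the very-long-chain dehydrogenase and the closing thiolase, had SkM estimates of -0.49 and -0.55, below the fold threshold, and their differences of 0.61 ± 0.15 and 0.69 ± 0.17 lost the call under 9 and 5 of 27 alternatives. Plin5, which ties lipid droplets to mitochondria, fell in SkM from 43.2, 41.4, 43.6 and 33.3 CPM to 20.2, 16.6 and 18.4 CPM and had a BAT response of -0.16 ± 0.13. Sirt3, the mitochondrial deacetylase gene, fell from 19.9, 18.2, 15.1 and 16.6 CPM to 9.92, 11.7 and 10.96 CPM in SkM and had a BAT response of 0.00 ± 0.10.

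Respiratory chain and ribosome genes had differences of mostly opposite sign, none of which was called. Of 77 nuclear genes of the respiratory chain, 74 had a difference above zero but none was called, and the median response was 0.14 in BAT and -0.15 in SkM. Of 66 cytosolic ribosomal protein genes, 10 rose in SkM and none in BAT, 65 had a difference below zero and none was called, with medians of 0.14 and 0.44. Among all tested genes, 5.28% rose in SkM and 3.7% in BAT. Without SkM CR 1 and CR 3, the median difference of the ribosomal genes went from -0.29 to 0.0025. That setting leaves 1 CR library in SkM, so the value also reflects the library kept, and its cause was not tested. Under that setting the median difference of the respiratory chain genes was 0.49 and that of the beta-oxidation genes 0.57.

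Sterol synthesis genes rose in BAT. Of 24 tested genes, 13 rose in BAT and 3 in SkM, and 5 differences were called, all with BAT above. The shares over all tested genes were 3.7%, 5.28% and, for called differences with BAT above, 3.04%. Fdft1, the squalene synthase gene, went from 111, 77.9 and 115 CPM to 228, 266, 229 and 214 CPM in BAT and had an SkM response of 0.33 ± 0.13. Pmvk, the phosphomevalonate kinase gene, rose by 0.73 ± 0.11 in BAT with an SkM estimate of -0.35 ± 0.13. Msmo1, a sterol C4-methyl oxidase, and Fdps, the farnesyl diphosphate synthase, had BAT responses of 0.92 ± 0.15 and 0.87 ± 0.12 and SkM responses of -0.07 ± 0.18 and 0.17 ± 0.12. Without the 3 BAT libraries richest in muscle marker RNA (control 1, CR 3 and CR 4), 2 differences of the list were called with BAT above and 1 with BAT below, and Fdps was among those lost. The makers of substrate for lipid synthesis, Me1 (malic enzyme, a source of NADPH) and Acss2 (acetyl-CoA synthetase), rose in BAT from 356, 410 and 489 CPM to 990, 1340, 1274 and 1155 CPM and from 167, 220 and 243 CPM to 413, 457, 395 and 552 CPM. Their SkM responses were 0.11 ± 0.14 and -0.47 ± 0.16. Me1 and Acss2 belong to a list of 24 tested fatty acid synthesis genes, of which 7 rose in BAT and 8 in SkM. Differences in that list were called for 4 genes with BAT above and for 3 with BAT below. Over all tested genes, 3.7% rose in BAT, 5.28% rose in SkM and 3.25% had a called difference with BAT below.

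Of 24 tested glucocorticoid receptor targets, 10 rose in both tissues, against 0.877% of all tested genes. Another 5 were called upwards in SkM, 1 of them being Sgk1, and 3 fell in BAT, which were Sgk1, Dusp1 and Errfi1. The median response was 0.72 in BAT and 1.12 in SkM, and the 5 called differences all had BAT below SkM. Such a call was made for 3.25% of all tested genes. Without the 3 BAT libraries richest in muscle marker RNA, 3 differences were called with BAT above and 4 with BAT below. Dusp1, a phosphatase gene for mitogen-activated protein kinases, is also an immediate early gene. Of 26 tested immediate early genes, which respond within minutes to a stimulus, 8 fell in BAT and 1 in SkM, and 4 differences were called, all with BAT below. The shares over all tested genes were 5.9%, 5.38% and, for called differences with BAT below, 3.25%.

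These early genes varied widely among the control BAT libraries. Nr4a1, an orphan nuclear receptor gene, stood at 18.7, 425 and 191 CPM in control BAT and at 2.61, 6.33, 7.08 and 3.81 CPM in CR BAT, while SkM stood at 215, 199, 192 and 256 CPM in controls and at 156, 127 and 199 CPM under CR. The BAT groups did not overlap although the controls ranged from 18.7 to 425 CPM. Dusp1 stood at 18.2, 44.0 and 21.7 CPM in control BAT and at 6.35, 7.24, 9.43 and 5.36 CPM in CR BAT. Jund, a member of the AP-1 complex, and Atf3, a stress-induced factor, had BAT responses of -0.88 ± 0.14 and -2.36 ± 0.50. Without BAT control 2, the library with the highest Nr4a1 and Dusp1, the differences of Jund, Dusp1 and Atf3 were not called. The differences of Dusp1 and Atf3 had adjusted p-values of 0.0432 and 0.0422 in edgeR and lost their calls under 14 of 27 and 16 of 26 alternatives. That of Nr4a1 lost its call under 3 of 27 alternatives, both replicate blocks among them.

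The difference was called for 2 of 17 tested core clock genes, against 6.29% of all tested genes. Of the 17, 3 rose in both tissues, Per2 and Cry2 among them, and 3 fell in both (Npas2, Nr1d1 and Bhlhe40). Per2, a period gene that represses the clock's activators, rose from 18.7, 6.27 and 15.3 CPM to 45.5, 42.9, 44.6 and 37.8 CPM in BAT and from 13.1, 7.63, 9.29 and 11.3 CPM to 35.97, 38.8 and 35.8 CPM in SkM. Nr1d1, the REV-ERBα gene, fell from 137, 107 and 117 CPM to 32.5, 26.9, 36.04 and 35.2 CPM and from 160, 262, 282 and 209 CPM to 73.2, 49.9 and 46.1 CPM. The CR libraries of both genes lay close together in each tissue, and the differences of -0.16 ± 0.38 and 0.14 ± 0.27 were not called.

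The exceptions were Cry1 and Ciart in the core clock and Dbp, Nampt and Nfil3 among 9 output factors. Cry1, a cryptochrome repressor gene, rose in BAT from 4.55, 3.30 and 4.94 CPM to 22.1, 17.6, 14.8 and 19.3 CPM. In SkM it stood at 8.44, 9.27, 7.39 and 9.24 CPM in controls and at 11.03, 12.6 and 14.95 CPM under CR, just below the fold threshold. Ciart, a repressor of the CLOCK complex, fell in SkM from 12.0, 6.78, 9.29 and 8.92 CPM to 2.58, 4.92 and 5.23 CPM, while in BAT it stood at 3.83, 2.20 and 4.12 CPM in controls and at 6.28, 4.18, 6.14 and 5.56 CPM under CR. Dbp, a D-box activator gene, fell in SkM by 0.84 ± 0.16 with a BAT response of 0.27 ± 0.16, and Nfil3, which opposes it at the same DNA sites, rose in SkM from 12.9, 11.9, 9.34 and 15.5 CPM to 73.1, 30.6 and 39.5 CPM with a BAT response of -0.25 ± 0.26. Nampt, the rate-limiting enzyme of NAD salvage, rose in BAT by 0.61 ± 0.11 with an SkM estimate of -0.31 ± 0.11.

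Of the clock genes whose responses parted, Ciart, Cry1 and Nfil3 are shown by their promoters, because these held a marked motif. The promoter of Dnaja4, a chaperone gene of opposite response, stands beside them. Each is the RefSeq window of 300 bases on GRCm38.p6 from 250 bases before to 50 after a transcript start, written 5′ to 3′ on the gene's strand. Capitals mark the E-box CACGTG bound by CLOCK and its partner, the RORE core TAGGTCA bound by REV-ERB, and the heat shock element pair GAANNTTC, each searched on both strands.
Ciart, minus strand, chr3:95882179-95882478: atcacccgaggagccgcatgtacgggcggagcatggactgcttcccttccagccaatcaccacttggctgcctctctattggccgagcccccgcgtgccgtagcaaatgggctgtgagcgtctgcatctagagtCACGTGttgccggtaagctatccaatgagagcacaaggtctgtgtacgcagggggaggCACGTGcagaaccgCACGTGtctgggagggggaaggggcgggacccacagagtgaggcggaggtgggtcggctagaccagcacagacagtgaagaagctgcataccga
Cry1, minus strand, chr10:85185005-85185304: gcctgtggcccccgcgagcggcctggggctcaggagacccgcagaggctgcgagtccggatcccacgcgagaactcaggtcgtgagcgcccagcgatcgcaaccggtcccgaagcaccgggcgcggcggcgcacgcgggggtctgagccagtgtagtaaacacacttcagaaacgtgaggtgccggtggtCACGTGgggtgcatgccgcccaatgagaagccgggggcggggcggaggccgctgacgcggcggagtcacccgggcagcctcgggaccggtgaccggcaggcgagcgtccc
Nfil3, minus strand, chr13:52980990-52981289: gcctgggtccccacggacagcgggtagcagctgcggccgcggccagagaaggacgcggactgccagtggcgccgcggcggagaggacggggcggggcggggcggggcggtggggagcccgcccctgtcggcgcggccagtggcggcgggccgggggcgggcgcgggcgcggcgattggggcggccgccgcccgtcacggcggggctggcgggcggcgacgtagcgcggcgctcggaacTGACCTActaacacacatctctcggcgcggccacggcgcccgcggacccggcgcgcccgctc
Dnaja4, plus strand, chr9:54699309-54699608: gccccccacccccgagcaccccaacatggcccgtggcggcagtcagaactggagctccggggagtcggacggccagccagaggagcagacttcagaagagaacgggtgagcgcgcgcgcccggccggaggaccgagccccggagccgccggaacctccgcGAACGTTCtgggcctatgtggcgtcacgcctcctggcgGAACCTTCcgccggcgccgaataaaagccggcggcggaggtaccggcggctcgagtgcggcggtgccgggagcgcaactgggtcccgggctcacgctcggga

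The Ciart window held 3 E-boxes and the Cry1 window 1, the Nfil3 window held 1 RORE core on the opposite strand, and the Dnaja4 window held 2 heat shock element pairs. The Dbp window, which is not shown, held no marked motif, and none was found for Nampt. An E-box was in 7.15% of all 32851 RefSeq promoter windows and in 9.62% of the 13767 windows of tested genes. It was in 9.28% of 97 windows of genes raised in BAT only and in 14.4% of 174 windows of genes raised in SkM only, but in 4.97% of 181 windows of genes lowered in SkM only and in 1 of 49 windows of opposite genes. The heat shock pair was in 7.86% of all windows, in 5.83% of those of tested genes and in 10.2% of those of opposite genes. The RORE core was in 1.93% of the windows of tested genes and in no more than 4.08% of those of any class, and the D-box TTATGTAA was in 0.53% and in no more than 0.917%. The glucocorticoid receptor half-site TGTTCT was in 19% of all RefSeq promoter windows and in 13% of the windows of tested genes. The half-site was in 23.7% of windows of genes raised in BAT only and in 19.9% of those of genes lowered in SkM only. In genes raised in both tissues the share was 13.8%. Several windows may belong to 1 gene, and these shares are descriptions of letters and not of bound sites.

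Adipokine genes encode factors that fat cells secrete. Of 25 tested adipokine genes, 9 differences were called, 7 of them with BAT below, and the median response was -0.04 in BAT and 0.75 in SkM. Besides Apoe and Rbp4, the list holds acute phase and adipocyte genes, and the part of liver and fat RNA in their SkM values was not tested. Without SkM CR 1 and CR 3 the SkM median was -0.18, in a fit that keeps only SkM CR 2, with 166 CPM of Alb. Of 25 tested NRF2 and antioxidant genes, 7 differences were called, all with BAT above, and 3 differences were called when the 3 BAT libraries rich in muscle RNA were left out. Of 25 heat shock chaperone genes, 24 had a difference above zero and 2 were called, Dnaja4 and Hspb8, and leaving out the same 3 BAT libraries gave 6 calls. Beside these 3 lists, 3.04% of all tested genes had a called difference with BAT above and 3.25% with BAT below.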

How the data were processed

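Total RNA of BAT and gastrocnemius muscle was sequenced by the study as paired-end reads. Per the paper's methods, the authors trimmed reads, aligned them to mm10 with STAR 2.7.10a and estimated expected counts per gene with RSEM, and the deposited table holds these expected counts without normalization. The submitters' processing notes name RSEM 1.2.28 and DESeq2 1.3.40, whereas the paper names other versions of both, and which ones made the table is not known here. How reads shared by near-identical genes were divided rests on RSEM's estimates.

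The expected counts of 14 libraries were rounded to whole numbers. The other 15 libraries of the series were not used here. Genes were filtered with filterByExpr and libraries scaled by trimmed mean of M-values (TMM). edgeR 4.0.16 in R 4.3.3 fitted 1 quasi-likelihood model with 4 group means. From it the BAT response, the SkM response and their difference were tested across all 14369 genes with Benjamini-Hochberg adjustment, at an adjusted p under 0.05 and a fold of at least 1.5. Errors are standard errors, and CPM values are TMM-scaled. Intervals are 95% confidence intervals of a response or difference, with a width that rests on the spread between libraries. Spreadsheet dates stood in place of 27 symbols and 2 symbols were duplicated, and none of these is named. Some results are not reported here.

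Genes are called alike (called in both tissues with the same sign), opposite, or of a single tissue (called there, not in the other, with a called difference). Genes were named from those measured in both tissues, up to 8 per direction for opposite genes, 4 per direction for genes of a single tissue whose interval in the other lay within 1.5-fold, 6 per direction for alike genes by the smaller response, 4 for alike genes with a called difference, and 4 per gene list, besides genes the study discussed. Errfi1, Hspb8 and the clock genes given without values were named to complete a count, after their values were seen. The comparison and the gene lists were chosen with earlier results of these data known.

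Alternatives were DESeq2 1.42.0, other scaling, other filters, no fold minimum and a fit per tissue. Others were a replicate block, a replicate block across tissues, a muscle marker covariate in BAT, and leaving out each library. Fits without 3 BAT libraries rich in muscle RNA or without 2 SkM CR libraries rich in adipocyte RNA were added after the data were seen. The procedure was tested on simulated data. Promoter windows came from RefSeq on GRCm38.p6, and motifs were searched on both strands. Figures were drawn with matplotlib 3.10.9.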

Additional observations from a re-analysis of the deposited data

Results flagged for a closer look

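The response differed between the tissues, by the edgeR test of the difference itself, for 904 genes. Values follow for 68 of them, those described with values in the comparisons above. The values that follow are the BAT response minus the SkM response on the log2 scale.

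Among genes with opposite responses, the difference was above zero, at 2.90 for Tead1, 1.66 for Ung, 1.44 for Dnaja4, 1.97 for Arhgap24, 1.32 for Retsat, 1.86 for Fhl3, 1.39 for Chst15 and 1.40 for Acvr2b. It was below zero, at -3.03 for Cntfr, -3.70 for Glb1l2, -2.22 for Apoe, -4.01 for Adora1, -1.73 for Mxra8, -1.36 for Sox13, -2.26 for Hr, -1.76 for Cdkn1c, -2.42 for Sgk1, -2.11 for Plin4 and -1.45 for Tbc1d1.

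Among genes called in BAT but not in SkM, the difference was above zero, at 1.83 for Desi1, 1.07 for Tcn2, 1.05 for Bcat2, 0.94 for Rilp, 1.53 for Cry1, 0.92 for Nampt, 0.89 for Fdft1, 0.70 for Fdps, 1.08 for Pmvk, 0.99 for Msmo1, 1.40 for Me1 and 1.58 for Acss2. It was below zero, at -1.86 for Gmpr, -1.56 for Mcam, -1.64 for Ttc28, -1.08 for Abi3, -4.99 for Nr4a1, -1.46 for Dusp1, -0.82 for Jund, -2.43 for Atf3 and -1.30 for Prdm16.

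Among genes called in SkM but not in BAT, the difference was above zero, at 0.96 for P2rx6, 1.49 for Pde4a, 0.98 for Pla2g16, 1.08 for Slc25a22, 0.84 for Acads, 0.72 for Cpt2, 0.70 for Etfdh, 0.78 for Hadha, 0.74 for Hadhb, 0.97 for Plin5, 1.11 for Dbp, 1.83 for Ciart and 0.68 for Sirt3. It was below zero, at -2.43 for Foxo1, -1.41 for Nrip1, -1.23 for Tmpo, -2.06 for Usp54, -2.19 for Nfil3, -3.74 for Rbp4, -3.58 for Cyp2e1 and -4.11 for Plin1.

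Among genes called in both tissues with the same sign, the difference was above zero, at 1.18 for Col3a1. It was below zero, at -1.18 for Glul, -4.03 for Gsta3, -1.59 for Pnpla3 and -1.18 for Pik3r1.

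Among genes called in neither tissue alone, the difference was above zero, at 0.69 for Acaa2 and 0.61 for Acadvl.

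In 17 of the 180 groups of 4 libraries tested, 1 library stood apart from the other 3, where chance gives about 1 in 20. In BAT CR 2 these were Retsat at 287 CPM, Ttc28 at 21.1 CPM and Cyp4a10 at 5.86 CPM. BAT CR 3 stood apart in Cpt2 at 451 CPM, Etfdh at 625 CPM, Hadha at 1554 CPM, Dbp at 44.7 CPM and Col15a1 at 6.26 CPM, and its summed hepatocyte markers were 74.3 CPM. BAT CR 4 stood apart in Acads at 253 CPM. Among control SkM libraries, control 1 did so in Hadhb at 473 CPM, and control 2 in Abi3 at 59.1 CPM, Slc25a22 at 39.6 CPM and Cyp4a10 at 0.0997 CPM. Control 3 did so in Acss2 at 36.5 CPM and Doc2b at 0.440 CPM, and control 4 in Pde4a at 80.7 CPM.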

How the results depend on the processing

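The counts of genes with a called difference, alike in both tissues, of BAT only, of SkM only and in opposite directions were 904, 328, 267, 343 and 39. With a mean of at least 5 CPM required in each tissue, which tests fewer genes, they were 568, 133, 163, 178 and 18. Without a fold minimum 538 genes were alike and 105 opposite. With 1 fit per tissue 1518 genes had a called difference and 430 were of BAT only. Leaving out each library in turn gave 630 to 1128 called differences, 249 to 336 alike genes, 164 to 410 of BAT only, 261 to 389 of SkM only and 22 to 50 opposite. Without 2 SkM CR libraries 167 genes were alike, and 23 of the 39 opposite genes were opposite again. Without the 3 BAT libraries rich in muscle RNA 25 of the 39 were. DESeq2 called 1217 differences. These counts stayed within 1.5 times, apart from the cases given and those of the replicate block across tissues, given below. The cause of these cases was not tested.

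Whether replicate numbers mark mice is not known. Of 6 pairs of BAT and SkM libraries with the same number, 0 correlated above 0.1 (-0.197 to 0.0847), and 2 of 12 libraries correlated best with their own number. Both tissues of a mouse need not vary together, so these values cannot tell whether same-numbered libraries share a mouse. With a replicate block 630 differences were called, and with a replicate block across tissues 318, of which 98 were of BAT only and 131 of SkM only. The latter block treats same-numbered libraries of a diet as the same mouse.

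Of 2278 values of named genes under alternatives, 2160 kept sign and call, 85 lost the call, 11 gained it and 22 changed sign, all in genes with no called difference. The sign changed for Col15a1 at -0.00405 with at least 5 CPM, for Fbn1 at -0.0520 with the replicate block and at -0.0293 with the muscle covariate, for Per2 at 0.22 and Col15a1 at -0.12 without 3 BAT libraries, and for Bcl6b at -0.23, Col15a1 at -0.0410 and Cx3cl1 at -0.0364 without 2 SkM CR libraries. Leaving out each library gave -0.48 to 0.17 for Per2, -0.18 to 0.56 for Mt2, -0.96 to 0.14 for Doc2b, -0.0820 to 0.38 for Bcl6b, -0.21 to 0.29 for Col15a1 and -0.10 to 0.40 for Fbn1. The number of libraries and the wide spread of immediate early genes in control BAT limit the precision.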

Other observations

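The following genes were chosen after their values were seen. Gm13301 and Gm21075 held identical counts in all 14 libraries, and both were in the group that fell in BAT and rose in SkM. Gm21158 (chr4:42708894-42720147) was in the same group, with responses of -1.36 in BAT and 1.39 in SkM, and lies on the same chromosome as Cntfr. Il11ra1 (chr4:41760443-41769473), which encodes the interleukin 11 receptor and lies near Cntfr, had responses of 0.08 and -0.26 and was not called in either tissue. The values of Gm13301 and Gm21075 are uncertain, since the estimates of near-identical genes can share reads.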
